A study of Mus musculus with 6 samples.

Results

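The genes described here are 40 genes of mitosis, the mitotic kinases, kinesins, kinetochore genes and their partners, measured after exposure of mouse medulloblastoma cells to the compound DS38 (DS-1-38, a benzarone derivative). They were chosen by name, with earlier results of these data known. All 40 symbols matched an Ensembl identifier among the 55416 in the count table. They were all among the 17679 genes that passed the filter on low counts. The tested group was MB21 cells given DS38 at 10 uM for 1 day (n = 3 libraries), and it was set against MB21 cells given the vehicle DMSO for 1 day (n = 3 libraries). MB21 is 1 medulloblastoma cell line with a Ptch mutation, which both groups carry, kept as non-adherent cells with B27 supplement, and all values come from this line. The design text of the series names 5 days of treatment, whereas the title, the sample titles and the treatment protocol give 1 day.

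Entry into mitosis is driven by CDK1 bound to cyclin A or B, which CDC25 phosphatases switch on. Aurora and Polo-like kinases then build the spindle, kinesins move and slide its microtubules, and the kinetochore couples chromosomes to it. The spindle checkpoint holds the anaphase-promoting complex until all chromosomes are attached, after which securin and cyclin B are destroyed and the cell divides. Transcripts of these genes accumulate in G2 and mitosis and are widely used as a readout of cycling cells, including the granule neuron precursors from which hedgehog-driven medulloblastoma arises.

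Libraries held 60434089 to 84044428 counts in DS38 and 38840296 to 50014681 counts in DMSO, so each DS38 library was deeper than each DMSO library. A member had between 555 and 120952 counts in a library. The CPM values of cell type markers were scaled by library size alone, without TMM. Markers of granule neuron precursors and hedgehog medulloblastoma (Atoh1, Zic1, Zic2, Barhl1, Gli1, Gli2, Mycn and Ccnd1) were all detected and summed to 2562 to 2594 CPM in DS38 and 2544 to 2582 CPM in DMSO. Within that list the groups did not overlap for Atoh1 (412 to 419.6 CPM in DS38, 317 to 335 CPM in DMSO) and Barhl1 (228 to 238 CPM in DS38, 183 to 193 CPM in DMSO), both above DMSO. They also did not overlap for Ccnd1 (633 to 644 CPM in DS38, 678 to 684 CPM in DMSO), Gli2 (299 to 303 CPM in DS38, 318 to 349 CPM in DMSO) and Zic2 (175 to 182 CPM in DS38, 192 to 197 CPM in DMSO), all below DMSO. At this scaling Gli1 (128 to 139 CPM in DS38, 135 to 150 CPM in DMSO), Zic1 (612 to 648 CPM in DS38, 641 to 671 CPM in DMSO) and Mycn overlapped. TMM factors were 1.007 to 1.015 in DS38 and 0.977 to 0.996 in DMSO. TMM would thus lower DS38 values beside DMSO, and which markers overlap can differ. Markers of microglia and macrophages summed to at most 0.167 CPM in DS38 and 0.335 CPM in DMSO, those of endothelium to at most 0.833 and 0.980 CPM in DS38 and DMSO, and those of fibroblasts to at most 3.16 and 2.60 CPM. The 5 maturing granule neuron markers, of which Gabra6 had 0 counts, summed to 333 to 344 CPM in DS38, below the 359 to 363 CPM in DMSO. Of that list Neurod1 alone stood apart at this scaling (83.3 to 92.8 CPM in DS38, 109.7 to 114 CPM in DMSO), while Rbfox3, Cntn2 and Grin2c overlapped between groups. The part of these markers in the results was not tested. Summed oligodendrocyte markers (mostly Olig1) were at 25.1 to 28.2 CPM in DS38 and 22.4 to 23.7 CPM in DMSO, and astrocyte markers (mostly Slc1a3) at 145 to 150 CPM in DS38 and 143 to 150 CPM in DMSO. C1qa of the microglia list and Cldn5 and Kdr of the endothelium list had 0 counts. Since no label names separate cultures, the p-values cover the spread among these 6 libraries, which may be technical.

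For 33 of the 40 mitotic genes no change passed the test after 1 day of DS38, and 7 moved. Mki67, Cenpf, Cenpe, Top2a and Cdk1 fell, and Pttg1 and Ccnb2 rose (edgeR's quasi-likelihood test, two-sided, Benjamini-Hochberg adjusted p under 0.05 over all genes tested). This is 5 of 40 members lower, or 12.5%, where 11.7% of all tested genes were called lower, and 2 of 40 higher, or 5.0%, where 12.9% of all tested genes were called higher; in either direction 17.5% of the members and 24.5% of all tested genes were called. The share called lower among the members was thus near that of the whole table. The median log2 fold change of DS38 over DMSO was -0.02 for the 40 members and 0.004 for all tested genes, and the median absolute log2 fold change was 0.05 for the members and 0.12 for all tested genes. In bulk RNA, fewer cells in G2 or mitosis and less RNA per cell cannot be told apart.

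For the 33 members past no threshold, the log2 fold changes lay between -0.09 (Ndc80) and 0.10 (Cdc25c), 19 below 0 and 14 above. Their 95% intervals, not adjusted for the number of genes, all lay within a change of 15 percent in either direction, and for 30 of the 33 within 10 percent. The widest reached from -10.9% at the low end for Ndc80 to 14.4% at the high end for Cdc25c. With scaling by library size alone, 7 members were called higher and 4 lower (18.6% and 8.73% of all tested genes), where TMM gave 2 and 5. Without DMSO replicate 3, 4 were called higher and 7 lower (13.3% and 13.5% of all tested genes). That scaling moved the median of all tested genes to 0.04, and the members' median stayed 0.02 below it.

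**Figure D1:**
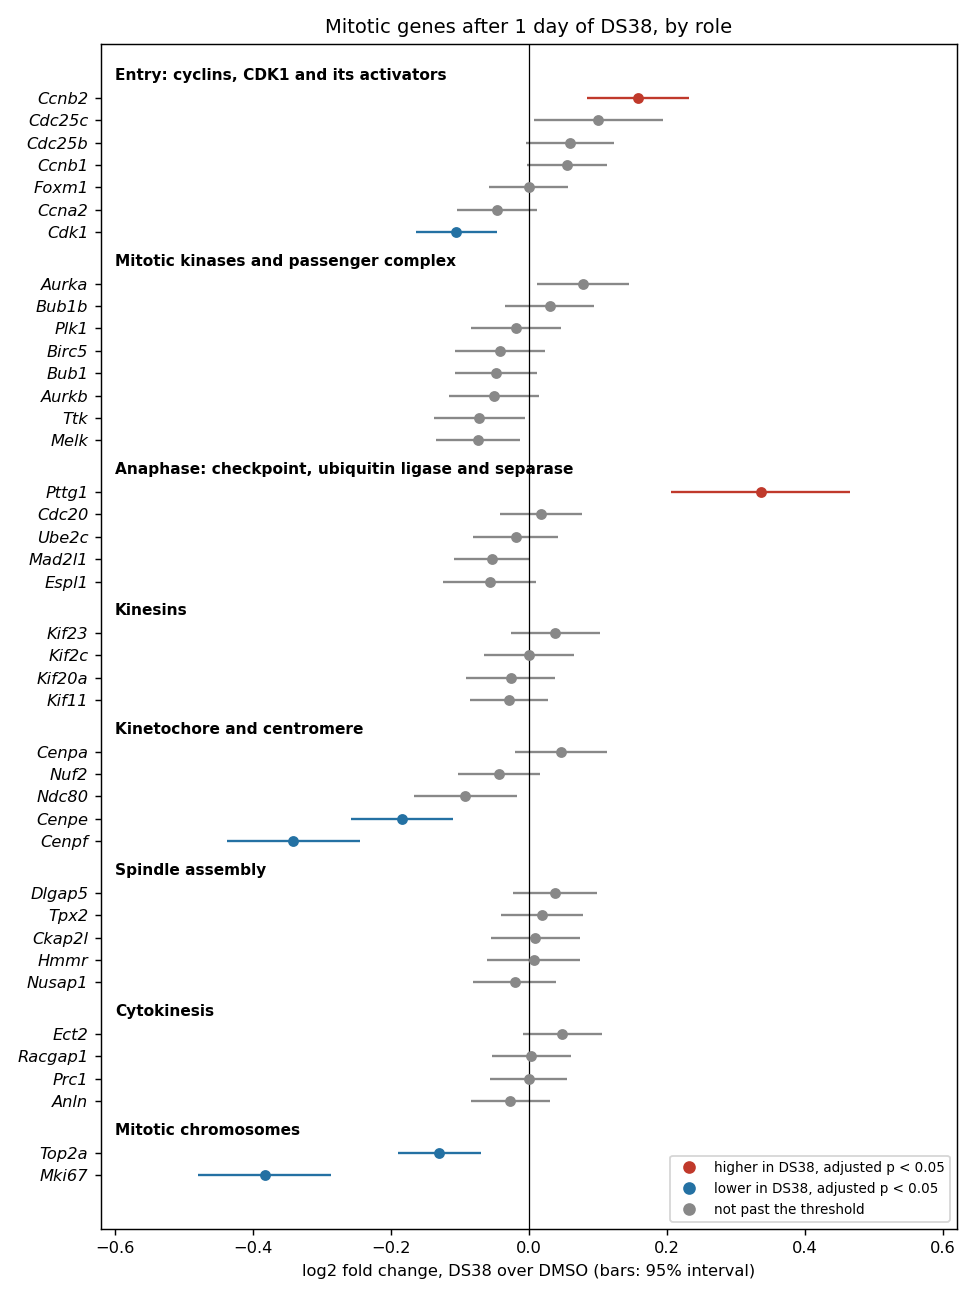
Log2 fold change of DS38 over DMSO for each of the 40 mitotic genes, grouped by role, with points for edgeR estimates and bars for 95% intervals. The 5 genes called lower (Mki67, Cenpf, Cenpe, Top2a and Cdk1) and the 2 called higher (Pttg1 and Ccnb2) are coloured, and the other 33 lie between -0.09 and 0.10.

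The genes that coat and untangle mitotic chromosomes were both lower. Mki67, which encodes the proliferation antigen Ki-67 that covers the surface of mitotic chromosomes, was at 1048, 1018 and 1093 CPM in DS38 replicates 1 to 3, against 1502, 1388 and 1229.7 CPM in DMSO replicates 1 to 3. All DS38 libraries lay below all DMSO libraries, and DMSO replicate 3 was the nearest to them. The means were 1053 ± 38.1 CPM in DS38 and 1373 ± 137 CPM in DMSO (SD, n = 3), for a log2 fold change of -0.38 ± 0.047 (SE; adjusted p = 3.27e-06, edgeR). Top2a, the topoisomerase that decatenates sister chromatids, was at 1395, 1361 and 1419.9 CPM in DS38, against 1550.4, 1542 and 1477 CPM in DMSO. Its groups did not overlap, and its fall was smaller, by 0.13 ± 0.029 on the log2 scale (SE; adjusted p = 0.00210, edgeR). Reads of both carry some uncertainty, since a pseudogene matches 216 bases of Mki67 and an exon of Top2a overlaps Gm23451. Per length, these were the most abundant members in either group: Top2a averaged 627 ± 14.1 TPM in DS38 and 674 ± 15.8 TPM in DMSO, and Mki67 averaged 425 ± 16.2 TPM in DS38 and 544 ± 52.2 TPM in DMSO (SD, n = 3).

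Among the 5 kinetochore and centromere genes, Cenpf and Cenpe fell, while the others did not pass. Cenpf, a large coiled-coil protein of the outer kinetochore, was at 347, 338 and 346 CPM in DS38 and at 476, 443 and 386 CPM in DMSO. The DS38 libraries lay close together and below every DMSO library, of which replicate 3 was again the lowest. The log2 fold change was -0.34 ± 0.046 (SE; adjusted p = 1.35e-05, edgeR). Cenpe, the kinesin that carries chromosomes to the spindle equator, was at 199, 197 and 196 CPM in DS38 and at 237, 227 and 208 CPM in DMSO. It fell by 0.18 ± 0.036 on the log2 scale (SE; adjusted p = 5.99e-04, edgeR), with no overlap between groups. Ndc80 and Nuf2, partners in the complex that grips microtubule ends, had log2 fold changes of -0.09 ± 0.036 and -0.04 ± 0.028 (SE; adjusted p = 0.0683 and 0.288, edgeR), with every DS38 library below every DMSO library for both. Ndc80 also has pseudogenes of high identity. Cenpa, the histone H3 variant that marks centromeres, averaged 76.9 ± 1.53 CPM in DS38 and 74.5 ± 1.07 CPM in DMSO (edgeR adjusted p = 0.309).

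Of the 7 genes of mitotic entry, Ccnb2 rose, Cdk1 fell and 5 did not pass. Cdk1, the kinase that starts mitosis, was at 210.9, 204 and 211 CPM in DS38 and at 224, 221 and 229 CPM in DMSO. It fell by 0.10 ± 0.028 on the log2 scale (SE; adjusted p = 0.00897, edgeR) with no overlap between groups, but the call was lost without DS38 replicate 2 (adjusted p = 0.0799) and with library size alone (0.0650). Ccnb2, one of the B-type cyclins that bind CDK1, was at 85.3, 84.1 and 80.3 CPM in DS38 and at 71.9, 74.1 and 78.0 CPM in DMSO, and rose by 0.16 ± 0.036 (SE; adjusted p = 0.00232, edgeR). Its lowest DS38 library lay above its highest DMSO library. Ccnb1, the other major B-type cyclin, averaged 292 ± 4.59 CPM in DS38 and 281 ± 5.08 CPM in DMSO (log2 fold change 0.06 ± 0.028; edgeR adjusted p = 0.163). Pseudogenes of at least 95% identity over 200 bases or more exist for Ccnb1, so reads between them and the gene are uncertain. Ccna2, cyclin A2, had a log2 fold change of -0.05 ± 0.028. The activating phosphatases Cdc25b and Cdc25c had 0.06 ± 0.031 and 0.10 ± 0.045 (SE; adjusted p = 0.170 and 0.111, edgeR); both were called higher without DMSO replicate 3 (adjusted p = 0.0287 and 0.0367) and with library size alone (0.0296 and 0.0391). Foxm1, the transcription factor that drives many genes of this phase, was at 205 ± 0.632 CPM in DS38 and 205 ± 2.73 CPM in DMSO, with a 95% interval of -0.06 to 0.06 on the log2 scale. Exons of Foxm1 overlap those of Tex52 and Gm44596 on the same strand, so its reads carry some uncertainty.

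Pttg1 showed the largest rise among the 40 members. It encodes securin, which restrains separase until anaphase. It was at 17.99, 17.6 and 15.9 CPM in DS38, against 13.04, 13.4 and 14.3 CPM in DMSO. The groups did not overlap, with DS38 replicate 3 and DMSO replicate 3 the closest pair. The means were 17.2 ± 1.12 CPM in DS38 and 13.6 ± 0.674 CPM in DMSO (SD, n = 3), for a log2 fold change of 0.34 ± 0.062 (SE; adjusted p = 3.98e-04, edgeR). It was also among the least abundant members per length, at 34.8 ± 2.14 TPM in DS38 and 27.1 ± 1.44 TPM in DMSO, with Cdc25c alone lower in DMSO and in DS38. Espl1, separase itself, had a log2 fold change of -0.06 ± 0.032 (edgeR adjusted p = 0.217). The anaphase-promoting complex activator Cdc20 and its ubiquitin-conjugating enzyme Ube2c had 0.02 ± 0.029 and -0.02 ± 0.029, and the checkpoint protein Mad2l1 had -0.05 ± 0.027; none passed (edgeR adjusted p = 0.713, 0.682 and 0.156).

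**Figure D2:**
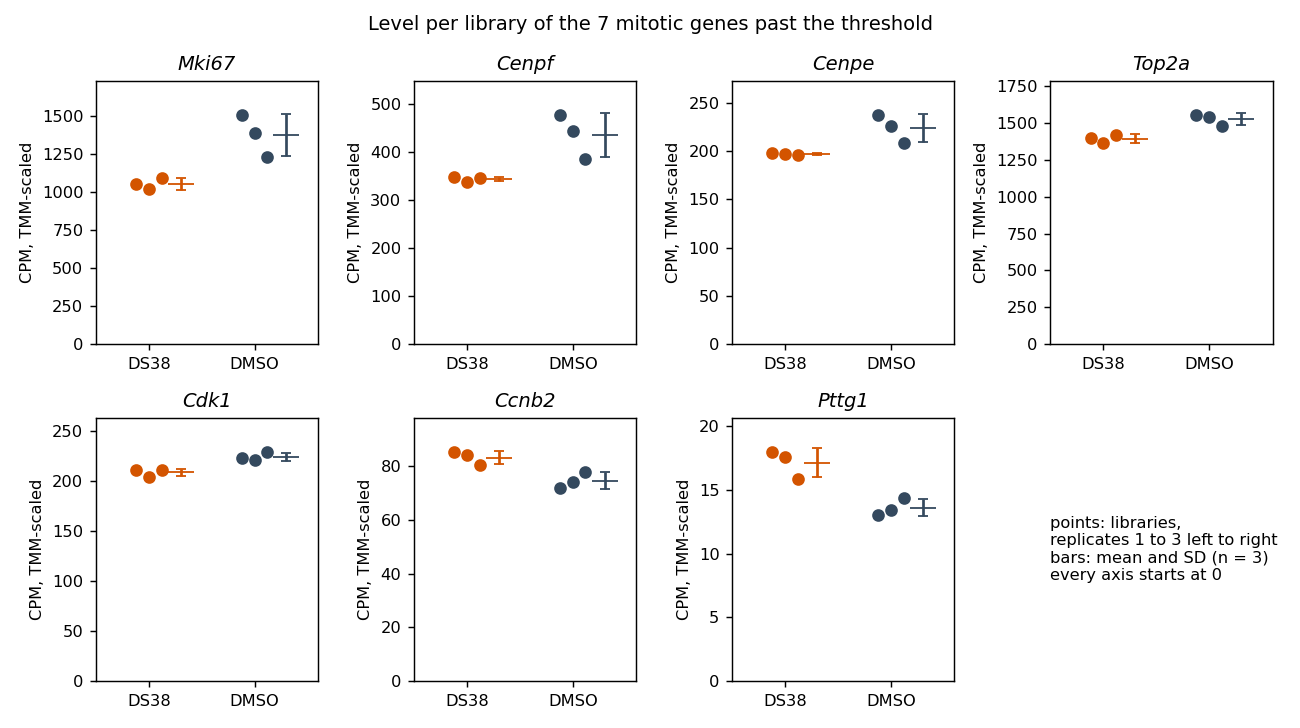
TMM-scaled CPM in each library for the 7 mitotic genes past the threshold, DS38 on the left and DMSO on the right of each panel, with points for libraries and bars for the mean and SD (n = 3). The groups do not overlap for any of the 7, and for Mki67, Cenpf and Cenpe the DMSO libraries are spread more widely than the DS38 libraries.

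None of the 8 mitotic kinases and passenger complex genes passed. Aurka, the centrosomal Aurora kinase, had a log2 fold change of 0.08 ± 0.032, and Aurkb, the Aurora kinase of the chromosomal passenger complex, had -0.05 ± 0.031 (SE; adjusted p = 0.0797 and 0.268, edgeR). Birc5 (survivin), the partner of AURKB in that complex, averaged 85.4 ± 0.409 CPM in DS38 and 88.0 ± 2.42 CPM in DMSO. Plk1, the Polo-like kinase of mitotic entry and spindle assembly, averaged 120.2 ± 3.27 CPM in DS38 and 121.8 ± 3.73 CPM in DMSO, with a 95% interval of -0.08 to 0.05 on the log2 scale. The checkpoint kinases Ttk, Bub1 and the related Bub1b had log2 fold changes of -0.07 ± 0.032, -0.05 ± 0.029 and 0.03 ± 0.031. For Melk, a kinase abundant in dividing progenitors, every DS38 library (93.2 to 94.5 CPM) lay below every DMSO library (98.1 to 99.3 CPM), at a log2 fold change of -0.07 ± 0.029 (SE; adjusted p = 0.0728, edgeR). Melk passed with the filter of 5 CPM in 3 libraries (0.0283), after thinning to equal depth (0.0423) and with the length trend removed (0.00212).

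No member grouped under kinesins, spindle assembly or cytokinesis passed the threshold. Cenpe, a kinesin that fell, was grouped with the kinetochore genes. The 4 members grouped as kinesins ranged from -0.03 to 0.04 on the log2 scale. Kif11, which pushes spindle poles apart, averaged 365 ± 3.04 CPM in DS38 and 373 ± 6.85 CPM in DMSO. The microtubule depolymerase Kif2c averaged 115 ± 2.46 CPM in DS38 and 115 ± 3.78 CPM in DMSO. Kif20a and Kif23, kinesins of the central spindle, had log2 fold changes of -0.03 ± 0.031 and 0.04 ± 0.031. The 5 spindle assembly genes lay between -0.02 (Nusap1) and 0.04 (Dlgap5), with Tpx2, the activator of AURKA, at 374 ± 3.46 CPM in DS38 and 369 ± 10.8 CPM in DMSO, and Hmmr and Ckap2l at 0.007 ± 0.032 and 0.01 ± 0.031. The 4 cytokinesis genes lay between -0.03 (Anln, anillin of the contractile ring) and 0.05 (Ect2, the exchange factor that activates RhoA). Prc1, which bundles midzone microtubules, averaged 240.3 ± 1.55 CPM in DS38 and 240.3 ± 2.28 CPM in DMSO, and Racgap1 averaged 395 ± 8.87 CPM in DS38 and 394 ± 3.56 CPM in DMSO.

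In 16 of the 40 members the groups did not overlap, where this held for 38.6% of all tested genes. Every DS38 library lay below every DMSO library in 11 members (27.5%, against 17.9% of all tested genes) and above in 5 members (12.5%, against 20.7%). All 7 called members were among these 16, and the other 9 were not called. The 40 members summed to 9089, 8931 and 9101 CPM in DS38 and to 9886, 9624 and 9395 CPM in DMSO. Without Mki67 and Top2a, which supplied much of the difference, the sum was 6646, 6553 and 6588 CPM in DS38 and 6834, 6694 and 6688 CPM in DMSO. In TPM, which corrects for length and was not TMM-scaled, the order turned for that sum. Without Mki67 and Top2a the remaining 38 members summed to 5676 ± 18.6 TPM in DS38 and 5605 ± 42.9 TPM in DMSO (SD, n = 3). All 40 summed to 6728 ± 43.2 TPM in DS38 and 6823 ± 65.4 TPM in DMSO. The CPM sums are TMM-scaled, so CPM and TPM sums differ in scaling as well as in length. Their parts in this turn were not tested.

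The promoters of the 7 called members are shown so that their letters can be compared with the late cell cycle promoter plan, in which the CHR element binds the MuvB complexes with B-MYB and FOXM1, and CCAAT boxes bind NF-Y. The stretches run 5′ to 3′ from 130 bases before to 20 bases after the RefSeq gene start, and capitals mark CHR letters (TTTGAA or TTTAAA, or TTCAAA where the other strand carries TTTGAA) and CCAAT boxes (CCAAT, or ATTGG on the other strand):
Mki67, GRCm38.p6 chr7:135716360-135716509, minus strand: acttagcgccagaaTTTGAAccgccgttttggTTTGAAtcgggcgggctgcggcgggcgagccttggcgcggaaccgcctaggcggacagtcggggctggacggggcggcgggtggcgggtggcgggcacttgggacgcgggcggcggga
Cenpf, GRCm38.p6 chr1:189688067-189688216, minus strand: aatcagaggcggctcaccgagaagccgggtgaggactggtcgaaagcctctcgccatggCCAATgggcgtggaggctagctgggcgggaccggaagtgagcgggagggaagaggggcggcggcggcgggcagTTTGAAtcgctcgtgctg
Cenpe, GRCm38.p6 chr3:135212433-135212582, plus strand: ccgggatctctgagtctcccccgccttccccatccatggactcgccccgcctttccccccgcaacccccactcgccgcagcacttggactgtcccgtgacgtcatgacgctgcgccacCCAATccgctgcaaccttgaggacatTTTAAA
Top2a, GRCm38.p6 chr11:99024170-99024319, minus strand: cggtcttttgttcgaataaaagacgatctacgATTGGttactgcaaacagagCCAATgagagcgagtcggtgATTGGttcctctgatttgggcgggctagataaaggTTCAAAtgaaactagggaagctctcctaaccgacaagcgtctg
Cdk1, GRCm38.p6 chr10:69352893-69353042, minus strand: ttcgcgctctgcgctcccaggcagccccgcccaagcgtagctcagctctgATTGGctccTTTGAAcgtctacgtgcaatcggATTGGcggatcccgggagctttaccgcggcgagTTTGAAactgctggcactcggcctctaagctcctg
Ccnb2, GRCm38.p6 chr9:70421535-70421684, minus strand: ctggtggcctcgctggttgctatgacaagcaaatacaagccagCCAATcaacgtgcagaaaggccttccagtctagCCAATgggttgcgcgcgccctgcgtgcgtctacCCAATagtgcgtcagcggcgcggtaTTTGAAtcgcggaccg
Pttg1, GRCm38.p6 chr11:43425962-43426111, minus strand: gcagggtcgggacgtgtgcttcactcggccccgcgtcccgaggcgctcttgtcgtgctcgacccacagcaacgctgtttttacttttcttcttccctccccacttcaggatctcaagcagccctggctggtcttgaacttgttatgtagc

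In these stretches the 5 genes that fell and Ccnb2, which rose, all had CHR letters, and Pttg1, which rose, had neither CHR letters nor a CCAAT box in the full 300-base window. Mki67 had no CCAAT box in the stretch shown and 3 in the full window. Within the stretches shown, CHR letters lay downstream of the annotated start in Ccnb2, Cenpf and Cenpe, and upstream in Mki67, Top2a and Cdk1. The full windows of Ccnb2 and Cenpf also held CHR letters upstream, at -167 and -154. No CHR match overlapped a CCAAT match in the 7 genes. RefSeq promoter windows of 300 bases (250 before to 50 after the start, GRCm38.p6) were matched for 33 of the 40 members. Of these, 26 (78.8%) held TTTGAA or TTTAAA on either strand, against 30.6% of 27025 genes with a window, and 24 (72.7%) held CCAAT on either strand, against 41.1%. The letters were thus shared by most members whether or not they moved: the 26 with CHR letters had a median log2 fold change of -0.009 and a range of -0.38 to 0.16, and the 7 without had a median of -0.04 and a range of -0.07 to 0.34. A match describes the letters and is not evidence of binding.

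All members that fell were longer than both members that rose. Lengths in the deposited table ran from 1531 bases for Ccnb2 to 15433 bases for Cenpf. The 2 members that rose were among the 3 shortest of 2000 bases or less (Ccnb2 at 1531 and Pttg1 at 2000 bases, with Cdc20 at 1868), and 4 of the 5 that fell were of 8620 bases or more (Cenpe 8620, Top2a 9013, Mki67 10061 and Cenpf 15433 bases). Cdk1, at 4934 bases, was the exception. Espl1 and Anln, at 8749 and 9063 bases, were as long by the deposited lengths and did not pass. By the longest protein-coding transcript of GENCODE M21, Top2a had 5221 bases, Espl1 6658 and Anln 4605. Cenpe had 7910, Mki67 10061 and Cenpf 11130, so how these genes compare in length depends on the measure. Of the 20 shorter members 2 rose and 0 fell, and of the 20 longer members 0 rose and 5 fell, where the members of 4919 bases (Cdc25c and Ttk) stood at the split. All tested genes were also split by length into 10 groups of equal size. In groups 3 to 7 (1413 to 5425 bases) 11.8% to 18.7% of all tested genes were called higher and 7.18% to 9.95% lower. In groups 7 to 10 (4399 bases or more) 10.7% to 18.7% were called higher and 9.95% to 32.6% lower. Across the 40 members, log2 fold change and log2 length correlated at Pearson r = -0.61 and Spearman rho = -0.46, as a description over genes that share the same 6 libraries. With the longest transcript as length, r was -0.71 and rho was -0.52. The values that follow use the deposited lengths. Without Mki67 and Cenpf, the longest members, r was -0.49 and rho was -0.37 (n = 38). Without Mki67, Cenpf, Cenpe and Top2a, r was -0.41 and rho was -0.26 (n = 36). Without the 7 called members, r was -0.10 and rho was -0.12 (n = 33), so the relation lay mostly in the called members. Those were picked by their fold changes, so this describes the relation and does not test it.

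**Figure D3:**
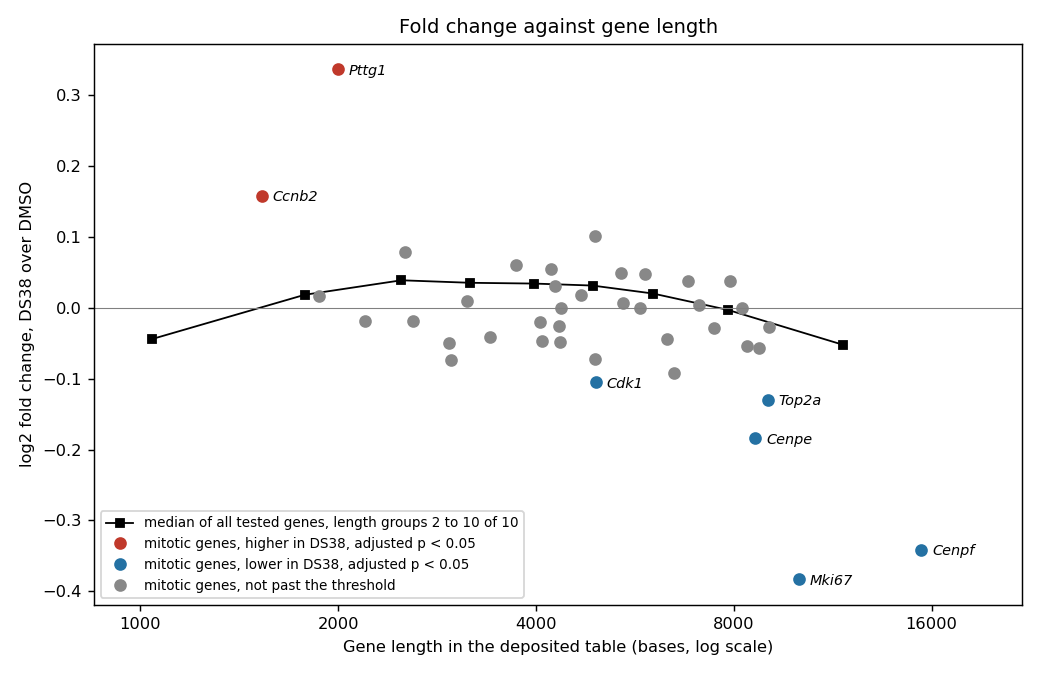
Log2 fold change of DS38 over DMSO against gene length in the deposited table (log scale) for the 40 mitotic genes, with squares for the median of all tested genes in length groups 2 to 10 of 10 equal groups. Pttg1 and Ccnb2 lie above the line of medians at 2000 and 1531 bases, and Mki67 and Cenpf lie far below it at 10061 and 15433 bases.

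All tested genes did not follow a straight trend with length (Pearson r = 0.09 over 17679 genes). Split by length into 10 groups of equal size, their median log2 fold change was -0.11 in the shortest group, 0.04 in group 4 (2145 to 2833 bases) and -0.05 in the longest group (9176 bases or more). In that longest group 32.6% of all tested genes were called lower and 10.7% higher, and the 2 members there, Mki67 and Cenpf, were both called lower. In group 9 (6797 to 9175 bases), 18.6% of all tested genes were called lower, and 2 of the 10 members there were (Cenpe and Top2a). Both members called higher lay in group 3 (1413 to 2144 bases), where 11.8% of all tested genes were called higher.

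The libraries themselves differed with length. In the longest of the 10 groups, the median deviation of a gene's log2 CPM from its mean over all libraries was -0.02, -0.03 and -0.02 in DS38 replicates 1 to 3, and 0.06, 0.03 and -0.01 in DMSO replicates 1 to 3. DMSO replicate 3, the DMSO library nearest to DS38 for Mki67, Cenpf, Cenpe and Top2a, was thus also the nearest for long genes at large. It was also the nearest for the short Ccnb2 and Pttg1. Over all genes, chi-square per degree of freedom against DS38 libraries was 10.7 to 12.9 for it, and 24.2 to 28.9 for DMSO replicates 1 and 2. That measure grows with depth, and DMSO replicate 3 was the shallowest library. Correlations of log2 CPM with DS38 libraries were 0.991 to 0.992 for it and 0.990 to 0.992 for the other DMSO libraries. The part of these differences in the calls was not tested. With the length trend of each library removed, Mki67 and Cenpf still fell, by 0.35 and 0.25 on the log2 scale (edgeR adjusted p = 1.30e-07 and 3.10e-06), as did Cenpe and Top2a (by 0.17 and 0.12), and Pttg1 and Ccnb2 still rose, by 0.30 and 0.15. In that fit 12 members were called lower, where 14.2% of all tested genes were, and 2 higher, where 12.2% were; the further calls were Aurkb, Birc5, Bub1, Ccna2, Melk, Ndc80 and Ttk, with log2 fold changes of -0.09 to -0.12. With each library thinned to the total of the smallest, 2 members were called higher and 6 lower (11.9% and 11.3% of all tested genes), with Melk added.

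Among the 40 members, the spread between DMSO libraries was largest for Cenpf, Mki67 and Cenpe, and not for all long members. The SD of log2 CPM was 0.15 for Cenpf, 0.15 for Mki67 and 0.09 for Cenpe in DMSO, against 0.02, 0.05 and 0.008 in DS38. In DMSO it was 0.04 for Top2a, 0.02 for Espl1 and 0.009 for Anln, which are also long, and 0.07 for the short Pttg1. The lowest spreads were those of Mad2l1, of 8390 bases, in DS38 (0.002) and in DMSO (0.006). In 27 of the 40 members the DMSO SD exceeded the DS38 SD, a count that was not taken over all tested genes. Over all genes, chi-square per degree of freedom was 8.57 to 9.61 between DMSO libraries and 2.91 to 3.56 between DS38 libraries. A wider spread in DMSO was thus not particular to the members.

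Other genes of mitosis, from 8 lists of 146 genes of which 145 were tested, showed more falls than rises. Of these, 8 rose and 38 fell, where 12.9% of all tested genes were called higher and 11.7% lower, with a median log2 fold change of -0.03. With library size alone 17 were higher and 29 lower, where 18.6% of all tested genes were called higher and 8.73% lower. Condensin and cohesin genes, which shape and hold chromatids, were lower in 12 of 19 with none higher (median -0.11). Without DS38 replicate 1 or without DS38 replicate 2, 9 were lower, and with library size alone 10 were. With the length trend removed 15 were lower and 1 higher, where 14.2% and 12.2% of all tested genes were. Ncapg2, a condensin II subunit, was at 305, 307 and 307 CPM in DS38 and at 380.5, 379 and 352 CPM in DMSO, and fell by 0.27 ± 0.031 on the log2 scale (SE; adjusted p = 1.23e-06, edgeR). Smc2, the core ATPase of both condensins, fell by 0.18 ± 0.028, and Ncapd3 by 0.17 ± 0.029.

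Of 34 other kinetochore genes 6 fell and 0 rose, where 11.7% of all tested genes were called lower and 12.9% higher. With library size alone 5 were lower and 2 higher (8.73% and 18.6% of all tested genes). Knl1, the scaffold that recruits the checkpoint kinase BUB1, fell by 0.22 ± 0.038, Spc24, a subunit of the NDC80 complex, by 0.18 ± 0.040, and Pmf1, a subunit of the MIS12 complex, by 0.15 ± 0.035 on the log2 scale (SE; adjusted p = 1.74e-04, 0.00176 and 0.00223, edgeR). The 9 genes listed as other mitotic kinesins went both ways, with 2 higher and 4 lower. The part of each in mitosis was not examined here. Kif24 was at 29.5, 27.5 and 29.4 CPM in DS38 and at 37.3, 37.4 and 37.4 CPM in DMSO, a fall of 0.37 ± 0.042 (SE; adjusted p = 1.23e-06, edgeR). Kif15 and the chromokinesin Kif4 fell by 0.17 ± 0.030 and 0.13 ± 0.030, whereas Kif18b rose by 0.15 ± 0.030; Kifc1 rose by 0.11 ± 0.036 (adjusted p = 0.0274), a call lost under 6 of 16 alternatives (adjusted p up to 0.183).

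Of 32 other spindle and centrosome genes 3 rose and 9 fell, where 12.9% of all tested genes were called higher and 11.7% lower. With library size alone 5 rose and 5 fell, where 18.6% of all tested genes were called higher and 8.73% lower. Without DS38 replicate 2 or without DMSO replicate 1, 3 rose and 5 fell. Psrc1, a microtubule-associated protein, was at 23.7, 22.5 and 22.0 CPM in DS38 and at 17.3, 18.7 and 18.7 CPM in DMSO, and rose by 0.32 ± 0.052 (SE; adjusted p = 1.10e-04, edgeR). Troap and Haus2 rose by 0.18 ± 0.041 and 0.15 ± 0.037. Cenpj and Pcnt, which build centrioles and the material around them, fell by 0.29 ± 0.040 and 0.24 ± 0.036, and Cdk5rap2 by 0.18 ± 0.032.

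Of 17 genes of the anaphase-promoting complex and its regulators 2 rose and 4 fell, where 12.9% of all tested genes were called higher and 11.7% lower. With library size alone 4 rose and 3 fell (18.6% and 8.73% of all tested genes), and without DMSO replicate 3, 4 rose and 4 fell (13.3% and 13.5%). The subunit gene Anapc13 fell by 0.33 ± 0.046, Fbxo5, the inhibitor of the complex in interphase, by 0.14 ± 0.033, and the largest subunit Anapc1 by 0.12 ± 0.030, the last with no call once the length trend was removed (edgeR adjusted p = 0.585). Cdc16 rose by 0.14 ± 0.032; Anapc11 rose by 0.12 ± 0.043 (adjusted p = 0.0395), with overlapping groups and a call lost under 8 of 16 alternatives (adjusted p up to 0.186). In the remaining mitosis lists, Cdc25a fell by 0.17 ± 0.032 as the only call among 11 kinase and phosphatase genes. That list had 1 higher and 1 lower without DMSO replicate 1, with library size alone and with robust dispersion, 1 higher and 2 lower with the filter of 5 CPM in 3 libraries, and 2 lower without DMSO replicate 3, with RLE scaling, after thinning and with the length trend removed. Incenp, the scaffold of the passenger complex, fell by 0.13 ± 0.030 as the only call among 8 passenger and checkpoint genes. Among 15 MuvB, B-MYB and other late cell cycle genes, Lin9, a MuvB subunit, fell by 0.17 ± 0.032 and Rbl1 rose by 0.09 ± 0.031 (adjusted p = 0.0409), a call lost under 9 of 16 alternatives (adjusted p up to 0.183). The calls in that list ranged from 0 to 3 higher (3 with library size alone) and from 1 to 4 lower (4 with the filter of 5 CPM in 3 libraries); without DMSO replicate 1 there were 0 higher and 2 lower.

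Genes of replication and the G1/S transition, given beside the mitotic genes, were lower in 17 of 20 with none higher, where 11.7% of all tested genes were called lower and 12.9% higher. With library size alone 13 were lower, where 8.73% of all tested genes were. Their median log2 fold change was -0.15, against -0.02 for the 40 mitotic members. Ccne2, cyclin E2, was at 66.4, 66.6 and 69.8 CPM in DS38 and at 92.6, 90.5 and 88.4 CPM in DMSO. The difference between these lists was not tested.

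**Figure D4:**
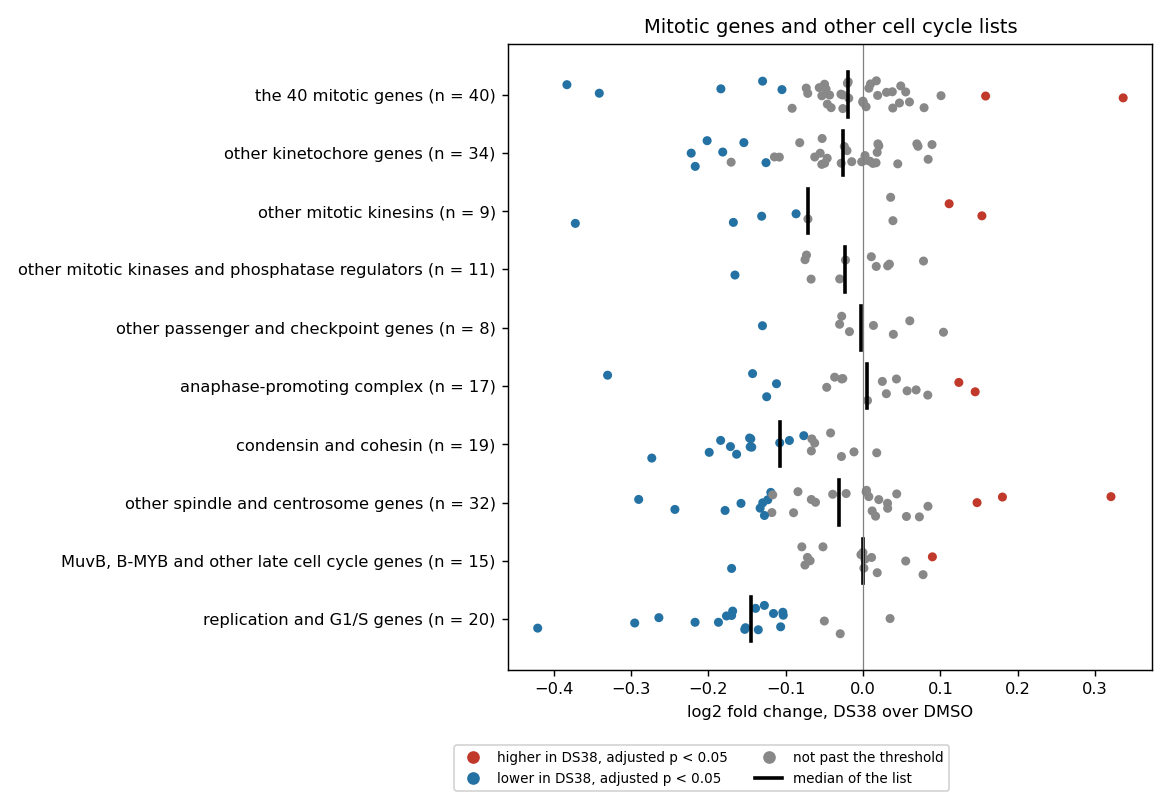
Log2 fold change of DS38 over DMSO for each tested gene of the 40 mitotic members and of 9 other cell cycle lists, with a bar at the median of each list. The median is -0.02 for the 40 members, -0.11 for condensin and cohesin and -0.15 for replication and G1/S genes.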

How the data were processed

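Messenger RNA of 6 MB21 libraries (3 DS38, 3 DMSO) was sequenced from column-purified RNA with an mRNA library kit, per the labels' protocols. The deposited file holds raw read counts and 1 length for each Ensembl gene. The submitters' processing notes name edgeR, R 4.1.0, featureCounts, Subread 2.0.3 and STAR 2.7.9a, with the builds GRCm39 and GRCh38.p13, and state no order. How strand and multi-mapped reads were handled is not given in the sources used here, so reads of the 12 members that share exons with another gene in GENCODE M21, and of the 5 with near-identical copies (at least 95% identity over 200 bases, BLAST 2.17.0), are uncertain.

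Genes were filtered with filterByExpr (minimum count 10, minimum total 15), scaled by TMM and tested for DS38 against DMSO with edgeR 4.0.16 (R 4.3.3; quasi-likelihood, group as the sole term, Benjamini-Hochberg over 17679 genes, threshold 0.05). Standard errors are the absolute log2 fold change over the root of F. CPM is TMM-scaled. TPM was computed from the counts and the deposited lengths, without TMM scaling. Those lengths exceed the longest protein-coding transcript of GENCODE M21 by over 1.5 times in 15 members. Alternatives were DESeq2 1.42.0, limma-voom (limma 3.58.1), RLE, library size alone, no filter, 5 CPM in 3 libraries, a replicate block, robust dispersion, removal of each library's length trend (lowess span 0.3), thinning, and leaving out each library. The tests were tested on simulated data. Members, lists and alternatives were chosen with earlier results of these data known, and transcript length was added as an alternative after seeing the data. All 40 members could be named, and up to 3 genes per direction and list by smallest adjusted p. No within-group pair of libraries was alike within sampling noise (chi-square per degree of freedom at least 2.91). Python 3.11.15 and matplotlib 3.10.9 were used for tables and figures. Lin54, of the MuvB list, was not analysed here.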

Additional observations from a re-analysis of the deposited data

How the results depend on the processing

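Among the 40 members, Mki67, Cenpf, Cenpe, Top2a, Pttg1 and Ccnb2 kept their call and direction under all 16 alternatives, and Cdk1 under 14. The number called higher, 2, was 7 with library size alone; without 1 library each, it was 2 to 4, with 4 without DMSO replicate 3. The number called lower, 5, was 12 with the length trend removed; without 1 library each, it was 4 to 7. The members' median of -0.019 moved to 0.016 with library size alone and to -0.037 after the length trend was removed, and without 1 library each it ranged from -0.0233 (DMSO replicate 2) to -0.00406 (DS38 replicate 2). The rank correlation with gene length, -0.46, was -0.22 with the length trend removed and -0.52 with the longest transcript as length; without 1 library each it was -0.49 to -0.40. For the other mitosis genes, 8 higher became 5 with DESeq2 and 17 with library size alone; without 1 library each, 5 to 11 were higher (5 without DS38 replicate 1). The cause of these shifts was not tested. With the replicate block, 2 members were higher and 5 lower, and it changed no call of a member. Deviations of same-numbered libraries correlated at r = 0.03, -0.01 and -0.02, and those of different-numbered libraries at -0.05 to 0.06. These values cannot show whether same-numbered libraries were handled together. Intervals and counts cover these 6 libraries, and differences under a few percent were not resolved.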
